A study of Homo sapiens with 15 samples.

Results

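The 40 genes described here encode the machinery of mitosis and of the mitotic spindle. They were taken by name: cyclins and CDK1, mitotic kinases, the spindle checkpoint, the kinetochore, spindle motors and microtubule-associated proteins, anaphase and cytokinesis factors, and the transcription factors FOXM1 and MYBL2. All 40 were rows of both deposited count tables, 40 of 59412 genes in the Huh7 table and 40 of 59428 genes in the IMR90 table. The study depleted THBD, which encodes the cell-surface protein thrombomodulin, in senescent cells of 2 lines and sequenced their RNA, asking whether senescence depends on it. Huh7 is a carcinoma line derived from hepatocytes. All Huh7 libraries came from cells made senescent with palbociclib, an inhibitor of CDK4 and CDK6. In 3 of them the cells carried a short hairpin RNA against THBD (shTHBD) and in 3 a non-targeting hairpin (control). IMR90 is a line of human lung fibroblasts. All IMR90 libraries are labelled as senescence induced by HRAS G12V, with 3 shTHBD libraries of set 1, 3 of set 2 and 3 with a non-targeting hairpin (control). Cells outside senescence were not analysed here, so that every control below is a control described as senescent. Whether the cells had stopped dividing was not tested here.

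Progress into mitosis depends on CDK1 bound to cyclin A or cyclin B, and exit from it on the anaphase-promoting complex, which marks cyclin B and securin for destruction. Most genes of the group are silent early in the cell cycle and are switched on late in it. Their promoters are held off by the DREAM complex with RB-family proteins and are opened by B-MYB (MYBL2) and FOXM1, which act through the cell cycle homology region. Many of these promoters also hold the CCAAT box, the site of NF-Y. Low transcript levels of these genes are a usual feature of cells that have stopped dividing, including senescent ones.

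The libraries held 22479132 to 25236178 counts in Huh7 shTHBD, 19328182 to 20020683 in Huh7 control and 18256773 to 21509229 in IMR90. THBD checked the hairpin labels. It gave 719, 732 and 763 counts in the libraries labelled shTHBD set 1, 199, 220 and 209 in set 2 and 315, 351 and 430 in IMR90 control, a log2 difference from control of 1.09 ± 0.076 for set 1 (adjusted p = 1.2e-20), where it was higher, and of −0.81 ± 0.090 for set 2 (adjusted p = 1.5e-12), where it was lower. In Huh7 it gave 0 counts in each shTHBD library and 0, 0 and 6 in control, where a fall could not be detected. Below, set 1 always means the libraries labelled so. All 8 hepatocyte markers reached 1 CPM (counts scaled by the library total) in both Huh7 groups and all 8 fibroblast markers did in the 3 IMR90 groups. The description of set 2 replicate 3 names Huh7, its other labels IMR-90. It had the hepatocyte marker sum of the set 2 libraries (11.5 to 13.2 CPM, against 2352 to 4938 CPM in Huh7). Nothing in the labels tells whether the replicates of a group are separate cultures, and the p-values below cover no more than the spread between libraries, which may be technical.

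In Huh7, nearly all of the 40 genes were lower with the THBD hairpin. Of 39 members tested, 37 fell, NUSAP1 rose, and BUB3 did not pass the test; PRC1 did not pass the filter on low counts. The called share was 97.4% of the members tested, against 53.1% of all genes tested, and for falls alone 27.3% of all genes (25.9% rose). The median log2 fold change of the members was −2.08, against 0.0020 over all 17474 genes tested. Of the 37, 36 fell at least 2-fold and 22 at least 4-fold. Tests were edgeR's quasi-likelihood test with Benjamini-Hochberg adjustment over all genes, called under 0.05, and fold changes are log2 of shTHBD over control ± SE. In RNA from whole cultures, fewer cells expressing a gene and less RNA per cell cannot be told apart.

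Summed over the 40 genes, the Huh7 shTHBD libraries held 349, 354 and 350.1 CPM, against 1245, 1263 and 1200.1 CPM in control. The groups did not overlap for 39 of the 40 genes, nor for 58.8% of all genes tested. Hepatocyte markers moved as well: their sum was 2352 to 2518 CPM in Huh7 shTHBD and 4812 to 4938 CPM in control, and that of 5 epithelial markers 2799 to 2865 CPM and 4614 to 4847 CPM in the same order of groups. The fibroblast marker sum was 1681 to 1743 CPM in Huh7 shTHBD and 1059 to 1107 CPM in control, with THY1 at 0 counts in every shTHBD library. Leukocyte and endothelial markers summed to 8.30 to 9.12 and 9.39 to 10.7 CPM in Huh7 shTHBD and 9.73 to 10.4 and 14.1 to 15.7 CPM in control. The part of these marker shifts in the members' values was not tested.

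In IMR90 the shares of members called lay below those of all genes. In the libraries labelled set 1, 9 of 28 members tested rose and none fell by edgeR's quasi-likelihood test (10 had an unadjusted p under 0.05, and DESeq2 called 8 higher and 0 lower); the shares of all genes were 53.8% called, 27.3% higher and 26.5% lower. The members' called share was 32.1%. In set 2, 7 rose and 6 fell of 28, 46.4% against a background of 67.3% called (33.2% higher, 34.1% lower). In IMR90 marker sums also differed: fibroblast markers gave 4449 to 4557 CPM in the libraries labelled set 1, 12457 to 12630 CPM in set 2 and 6226 to 6317 CPM in control. Hepatocyte markers gave 132 to 142 CPM in the libraries labelled set 1, nearly all of it SERPINA1 (134 CPM), and 11.5 to 17.9 CPM in the other groups, with APOB and TTR at 0 counts in both sets. Leukocyte markers gave 11.9 to 13.4 CPM in the libraries labelled set 1, 1.20 to 1.96 CPM in set 2 and 4.09 to 4.61 CPM in control. The part of these shifts in the members' values was not tested. The members' median change was 0.40 for set 1 and 0.013 for set 2. Both sets are set against the same 3 control libraries, so their values are given side by side only. Set 1 over set 2 gave 11 higher and 4 lower of 28, with a background of 69.5% called (33.9% higher, 35.6% lower). The remaining 12 members did not pass the filter on low counts in IMR90: MYBL2, CDK1, CDC25C, NDC80, NUF2, SPC25, CENPA, KIF20A, KIF2C, PRC1, DLGAP5 and NUSAP1. Tested without a filter, NUF2 (2.21, adjusted p = 0.0182) and MYBL2 (2.03, adjusted p = 0.0288) rose in set 2, and none of the 12 was called in libraries labelled set 1.

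**Figure D1:**
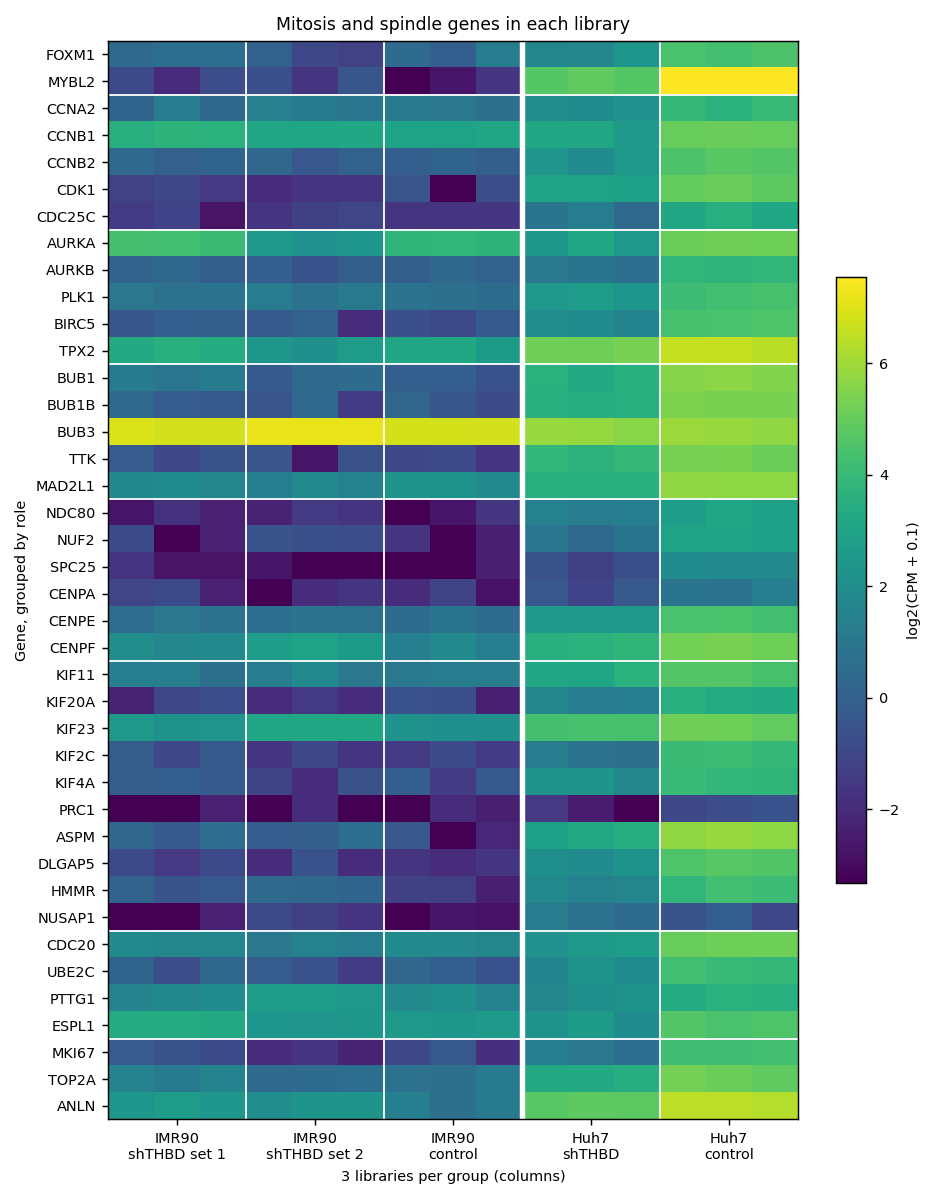
Colour shows log2(CPM + 0.1) of the 40 genes (rows, grouped by role) in each of the 15 libraries (columns, 3 per group). The Huh7 shTHBD columns are darker than the Huh7 control columns for nearly every gene, and BUB3 is the row that stays bright throughout IMR90 (112 to 148 CPM).

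BUB3, a checkpoint protein, was by far the most abundant member in IMR90. The 40 genes summed to 223, 214 and 209 CPM in the libraries labelled set 1, 223, 223 and 219 CPM in set 2 and 192, 189.8 and 183 CPM in control. Without BUB3 these sums were 101.9, 101.5 and 96.6 CPM in the libraries labelled set 1, 75.2, 78.0 and 74.8 CPM in set 2 and 76.9, 76.1 and 69.8 CPM in control. On that scale the libraries labelled set 1 lay above both other groups, which overlapped each other. Depth limits what can be seen here: 4 to 9 members had at most 3 counts in an IMR90 library, and 3 counts correspond to 0.139 to 0.164 CPM.

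**Figure D2:**
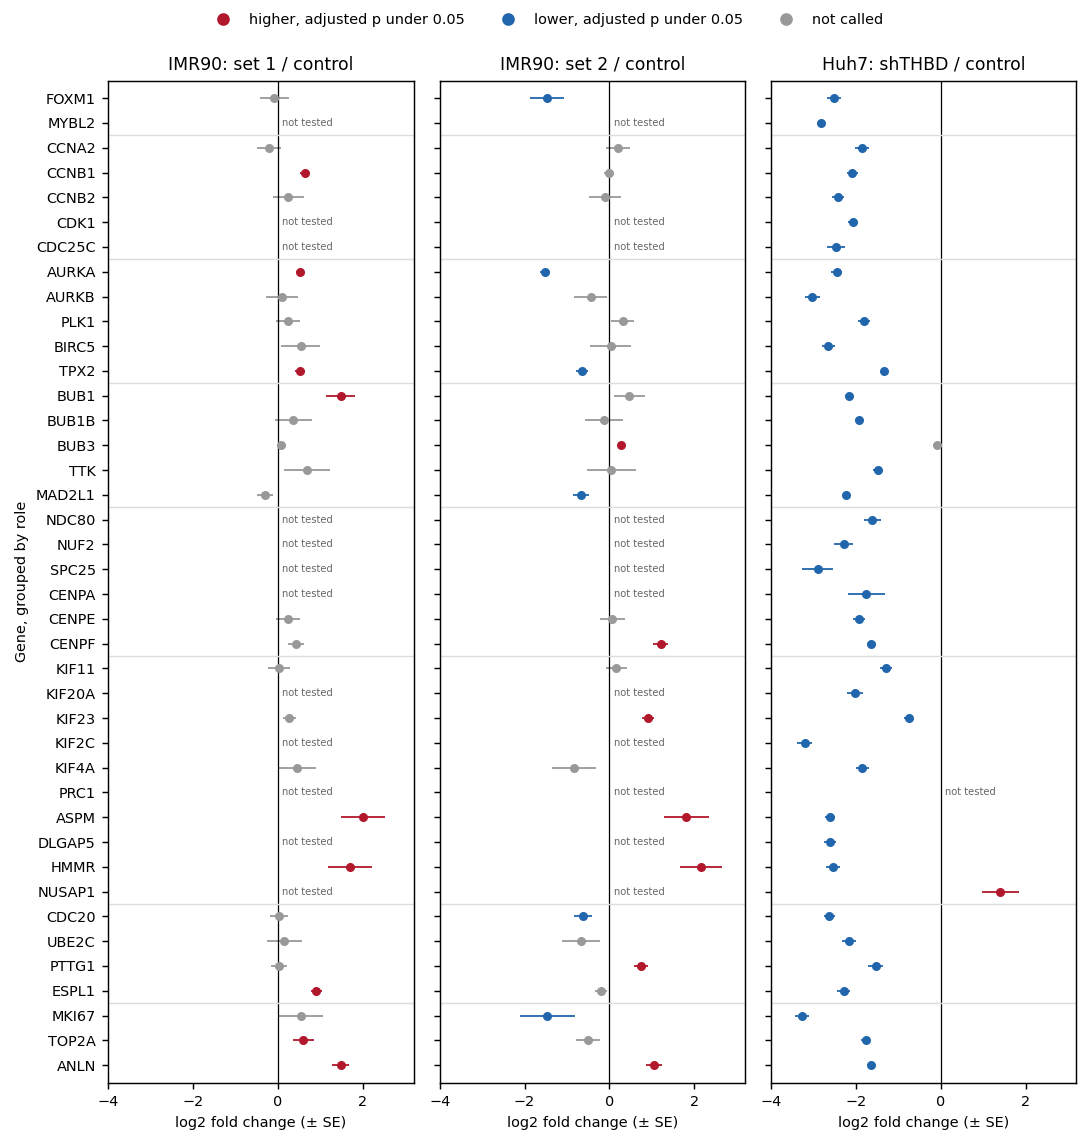
Points are log2 fold changes (bars ± SE) of each gene in the libraries labelled set 1 (left) and set 2 (middle) over IMR90 control and in Huh7 shTHBD over Huh7 control (right); colours mark the calls and genes that did not pass the filter on low counts are marked as not tested. In Huh7 the points lie left of 0 except NUSAP1, with BUB3 near 0, while the IMR90 panels hold calls on both sides in set 2 and on the right alone in set 1.

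Most promoters of the members hold motifs by which late cell cycle genes are known, and some sequences are shown because the members moved together in Huh7. RefSeq (GRCh38.p14) gave promoters, from 250 bases before to 50 after a start, for 33 of the 40 genes. The core cell cycle homology region, TTTGAA, was found on either strand in 24 of these 33 (72.7%), against 18.2% of 27305 genes with a promoter and 14.3% of 11654 such genes tested in Huh7. The form TTTAAA was found in 39.4% of the members and 14.5% of all genes, and CCAAT, the NF-Y box, in 78.8% and 39.7%. TTTGAA and CCAAT together were found in 60.6% of the members and 7.26% of all genes. These shares describe letters in a window and were not tested. The first base of TTTGAA lay at a median of 28 bases before the start and that of CCAAT at 87 bases before it.

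Printed 5′ to 3′ on the gene's strand are 150 bases (100 before to 50 after the start) for the member of each role with the largest fall in Huh7 among those with a RefSeq promoter. Where a gene had several windows, the stretch with the most matches of TTTGAA and CCAAT was chosen. Capitals mark TTTGAA and CCAAT on either strand (TTCAAA and ATTGG when reversed). They are MKI67 at chr10:128126374-128126523 (minus strand), CDC25C at chr5:138331755-138331904 (minus), CDC20 at chr1:43358881-43359030 (plus), SPC25 at chr2:168890381-168890530 (minus), MAD2L1 at chr4:120066799-120066948 (minus), AURKB at chr17:8210176-8210325 (minus), KIF2C at chr1:44739737-44739886 (plus) and MYBL2 at chr20:43667014-43667163 (plus), all GRCh38.p14.
MKI67: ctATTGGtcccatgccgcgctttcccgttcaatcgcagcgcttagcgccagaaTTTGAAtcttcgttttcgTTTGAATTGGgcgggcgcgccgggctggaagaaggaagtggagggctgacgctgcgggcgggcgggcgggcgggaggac
CDC25C: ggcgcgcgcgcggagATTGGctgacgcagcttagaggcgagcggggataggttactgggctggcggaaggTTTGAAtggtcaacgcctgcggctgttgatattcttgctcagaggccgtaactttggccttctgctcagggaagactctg
CDC20: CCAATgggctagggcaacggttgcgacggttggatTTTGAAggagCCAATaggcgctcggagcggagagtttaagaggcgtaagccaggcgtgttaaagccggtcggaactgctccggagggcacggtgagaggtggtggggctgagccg
SPC25: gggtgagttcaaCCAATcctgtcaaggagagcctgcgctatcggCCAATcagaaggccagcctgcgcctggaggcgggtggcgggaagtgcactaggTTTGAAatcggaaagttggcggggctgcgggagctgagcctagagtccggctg
MAD2L1: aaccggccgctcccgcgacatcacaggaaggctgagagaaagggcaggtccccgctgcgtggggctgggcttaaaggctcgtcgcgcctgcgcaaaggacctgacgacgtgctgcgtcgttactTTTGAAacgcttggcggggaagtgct
AURKB: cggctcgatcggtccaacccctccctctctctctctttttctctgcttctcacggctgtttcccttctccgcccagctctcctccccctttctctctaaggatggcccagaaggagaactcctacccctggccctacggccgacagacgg
KIF2C: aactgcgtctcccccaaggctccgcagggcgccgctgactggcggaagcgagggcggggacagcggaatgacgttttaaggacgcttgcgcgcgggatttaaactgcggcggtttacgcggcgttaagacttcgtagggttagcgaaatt
MYBL2: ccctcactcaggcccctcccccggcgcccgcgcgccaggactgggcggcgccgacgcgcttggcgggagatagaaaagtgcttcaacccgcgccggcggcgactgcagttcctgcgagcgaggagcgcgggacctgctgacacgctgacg
MKI67 has TTTGAA and CCAAT at 2 places each, and 1 of each overlap. CDC25C, CDC20 and SPC25 carry TTTGAA with CCAAT upstream of it or on both sides, and MAD2L1 carries TTTGAA after the start. Some other windows of CDC25C, not shown, held neither motif. AURKB, KIF2C and MYBL2 show no capitals. AURKB has a CCAAT 153 bases before this start, outside the stretch shown, and KIF2C has TTTAAA 3 bases before its start. The median change in Huh7 was −2.06 for the 23 tested members with TTTGAA and −2.08 for the 9 without it. Of those 9, CCNB1, CENPE, KIF20A, KIF2C and PTTG1 hold TTTAAA, the other form. The 2 medians therefore do not compare members with and without the cell cycle homology region.

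**Figure D3:**
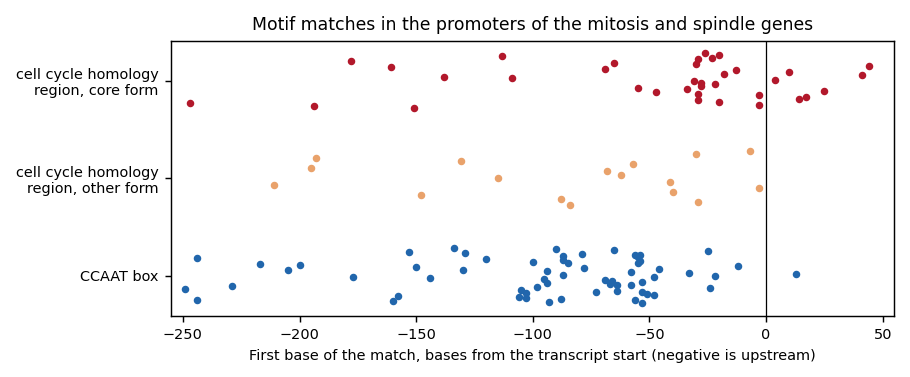
Each point is 1 match in 1 promoter window of the 33 members with a RefSeq promoter, by its distance in bases from the transcript start (x axis). Rows are the core form (TTTGAA) and the other form (TTTAAA) of the cell cycle homology region and the CCAAT box. Windows of 1 gene can overlap, so that sites of CDC25C, PTTG1 and AURKB appear more than once. Vertical spread within a row has no meaning. Matches of the core form gather close to the start (26 of 36 from 60 bases before to 50 after it), with CCAAT matches further upstream (42 of 63 beyond 60 bases before it).

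MYBL2, which encodes B-MYB, was the most abundant member per unit length in Huh7 control (231 ± 3.76 TPM, counts divided by gene length and scaled to a common total) and stood at 33.6 ± 3.32 TPM in Huh7 shTHBD (SD, n = 3 each). It measured 25.3, 29.3 and 25.3 CPM in Huh7 shTHBD, against 184, 183 and 187 CPM in control (−2.82 ± 0.071, adjusted p = 3.1e-25). FOXM1, the forkhead factor that drives the G2 and mitotic programme, measured 3.07, 3.21 and 5.07 CPM in Huh7 shTHBD and 21.6, 19.4 and 22.9 CPM in control (−2.53 ± 0.16, adjusted p = 9.3e-15). Both factors were lower in each shTHBD library than in any control library. In IMR90 MYBL2 gave 8, 3 and 10 counts in libraries labelled set 1, 10, 4 and 12 in set 2 and 0, 1 and 5 in control and did not pass the filter. FOXM1 measured 1.26, 1.40 and 1.42 CPM in the libraries labelled set 1, 0.948, 0.418 and 0.327 CPM in set 2 and 1.31, 0.856 and 2.28 CPM in IMR90 control. It fell in set 2 (−1.48 ± 0.40, adjusted p = 8.4e-04) and was not called in the libraries labelled set 1 (−0.084 ± 0.35, adjusted p = 0.857). The set 2 and control values of FOXM1 overlapped, and without control replicate 3 the fall was −1.02 (adjusted p = 0.0508).

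The cyclins and CDK1 form the engine of mitotic entry, and all 5 genes of this role fell in Huh7. CCNA2, the A-type cyclin of S and G2 phase, measured 3.901, 3.84 and 4.36 CPM in Huh7 shTHBD and 14.8, 12.2 and 15.8 CPM in control. CCNB1, cyclin B1, measured 9.09, 8.84 and 5.65 CPM in Huh7 shTHBD and 32.3, 33.5 and 32.3 CPM in control. CDK1, the kinase that both cyclins activate, measured 7.97, 7.73 and 7.12 CPM in Huh7 shTHBD and 31.2, 33.8 and 28.6 CPM in control. None of the 3 overlapped between the groups, with changes of −1.85 ± 0.16 (CCNA2), −2.08 ± 0.13 (CCNB1) and −2.06 ± 0.12 (CDK1), each with adjusted p of 1.1e-11 or lower. CCNB2, cyclin B2, averaged 4.71 ± 0.936 CPM in Huh7 shTHBD and 24.9 ± 2.31 CPM in control (−2.43 ± 0.14). CDC25C, the phosphatase that frees CDK1 for mitosis and whose promoter is shown above, averaged 1.76 ± 0.549 CPM and 9.64 ± 1.35 CPM in the same groups (−2.47 ± 0.22).

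In IMR90 CCNB1 was the gene of this role called against control. It measured 11.1, 12.7 and 12.1 CPM in the libraries labelled set 1, 8.16, 8.47 and 8.66 CPM in set 2 and 7.75, 7.71 and 8.46 CPM in control, and rose in the libraries labelled set 1 (0.64 ± 0.11, adjusted p = 1.5e-06). The difference of set 1 over set 2 was 0.65 ± 0.11 (adjusted p = 6.7e-07). CCNA2 measured 1.04, 2.30 and 1.12 CPM in the libraries labelled set 1, 2.58, 2.14 and 1.85 CPM in set 2 and 1.99, 1.87 and 1.53 CPM in control, with overlap between all groups and no call. CDK1 was close to the limit of detection, with 6, 8 and 5 counts in libraries labelled set 1, 3, 4 and 4 in set 2 and 12, 0 and 11 in control. CCNB2 averaged 1.04 ± 0.154 CPM, 0.904 ± 0.214 CPM and 0.913 ± 0.0930 CPM in the same order and was not called.

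Among the mitotic kinases, all 5 genes fell in Huh7. AURKB, the Aurora kinase that corrects faulty attachments of chromosomes, measured 1.95, 1.78 and 1.47 CPM in Huh7 shTHBD and 14.03, 13.2 and 14.5 CPM in control, a change of −3.03 ± 0.18 (adjusted p = 1.3e-15). BIRC5 (survivin), its partner in the chromosomal passenger complex, measured 3.901, 3.76 and 2.89 CPM in Huh7 shTHBD and 20.8, 21.2 and 23.3 CPM in control (−2.65 ± 0.15). AURKA, the Aurora kinase of spindle poles, measured 5.23, 8.92 and 5.38 CPM in Huh7 shTHBD and 33.999, 36.1 and 35.6 CPM in control (−2.46 ± 0.14). These 3 genes fell more than the median member. TPX2, which targets Aurora A to the spindle, measured 36.6, 35.9 and 39.7 CPM in Huh7 shTHBD and 95.4, 96.7 and 85.7 CPM in control (−1.34 ± 0.078). PLK1, a kinase of centrosome maturation and cytokinesis, measured 5.39, 6.18 and 5.07 CPM in Huh7 shTHBD and 17.4, 18.9 and 20.8 CPM in control (−1.81 ± 0.14). Adjusted p for the last 4 genes was 6.0e-13 or lower.

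AURKA and TPX2 moved in opposite directions in the IMR90 sets. AURKA measured 20.1, 18.99 and 17.1 CPM in the libraries labelled set 1, 5.58, 4.39 and 5.12 CPM in set 2 and 13.7, 14.4 and 12.7 CPM in control. No library overlapped between any of the groups: AURKA rose in libraries labelled set 1 (0.52 ± 0.096, adjusted p = 4.7e-06) and fell in set 2 (−1.52 ± 0.12, adjusted p = 5.2e-19). TPX2 measured 9.86, 11.7 and 10.6 CPM in the libraries labelled set 1, 5.32, 4.23 and 6.21 CPM in set 2 and 8.59, 8.83 and 6.04 CPM in control. It rose in libraries labelled set 1 (0.52 ± 0.13, adjusted p = 4.3e-04) and fell in set 2 (−0.65 ± 0.14, adjusted p = 5.7e-05), where 1 library lay above the lowest control library. Set 1 over set 2 was 2.03 ± 0.11 for AURKA (adjusted p = 2.2e-26) and 1.17 ± 0.14 for TPX2 (adjusted p = 1.1e-11). AURKB, BIRC5 and PLK1 were not called against control. AURKB measured 0.986, 1.15 and 0.880 CPM in the libraries labelled set 1, 0.843, 0.575 and 0.871 CPM in set 2 and 0.890, 1.12 and 0.930 CPM in control. BIRC5 measured 0.657, 0.849 and 0.880 CPM in the libraries labelled set 1, 0.737, 0.941 and 0.163 CPM in set 2 and 0.524, 0.428 and 0.744 CPM in control. PLK1 measured 1.86, 1.60 and 1.66 CPM in the libraries labelled set 1, 2.37, 1.57 and 2.01 CPM in set 2 and 1.68, 1.499 and 1.35 CPM in control. PLK1 differed from control by 0.24 ± 0.28 and 0.31 ± 0.28, neither of them called.

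The spindle checkpoint, which delays anaphase until every chromosome is attached, split in Huh7: 4 of its genes fell and BUB3 was not called. MAD2L1 (MAD2), which inhibits CDC20, measured 11.1, 11.1 and 11.7 CPM in Huh7 shTHBD and 52.8, 51.3 and 52.3 CPM in control (−2.24 ± 0.095, adjusted p = 2.0e-19). BUB1, a kinetochore kinase, measured 12.03, 9.27 and 11.03 CPM in Huh7 shTHBD and 46.9, 49.6 and 44.4 CPM in control (−2.15 ± 0.11, adjusted p = 7.3e-18). BUB1B (BubR1), a component of the mitotic checkpoint complex, measured 11.4, 10.9 and 11.03 CPM in Huh7 shTHBD and 41.7, 41.4 and 40.8 CPM in control (−1.92 ± 0.099, adjusted p = 2.9e-17). The groups were well apart for all 3. TTK, the MPS1 kinase, averaged 13.999 ± 1.36 CPM in Huh7 shTHBD and 38.3 ± 3.22 CPM in control (−1.48 ± 0.11). BUB3, which brings BUB1 and BubR1 to kinetochores, measured 58.4, 57.4 and 48.6 CPM in Huh7 shTHBD and 59.7, 58.6 and 53.5 CPM in control. These overlapped, with a change of −0.094 ± 0.079 (adjusted p = 0.333, approximate 95% interval −0.25 to 0.061 from the SE).

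In IMR90 BUB1 measured 2.19, 1.80 and 2.05 CPM in the libraries labelled set 1, 0.737, 1.25 and 1.31 CPM in set 2 and 0.838, 0.856 and 0.558 CPM in control. It rose in the libraries labelled set 1 (1.48 ± 0.34, adjusted p = 1.4e-04), with no call in set 2 (0.47 ± 0.37), and set 1 over set 2 was 1.01 ± 0.32 (adjusted p = 0.00425). BUB3 measured 121, 113 and 112 CPM in the libraries labelled set 1, 148, 145 and 144 CPM in set 2 and 115, 114 and 113 CPM in control. It rose in set 2 without overlap (0.27 ± 0.036, adjusted p = 6.5e-10). MAD2L1 measured 3.29, 3.65 and 3.08 CPM in the libraries labelled set 1, 2.48, 3.55 and 2.61 CPM in set 2 and 4.87, 4.71 and 3.44 CPM in control, and fell in set 2 (−0.66 ± 0.19, adjusted p = 0.00197), though 1 set 2 library lay above the lowest control library. BUB1B measured 1.21, 0.799 and 0.734 CPM in the libraries labelled set 1, 0.632, 1.20 and 0.272 CPM in set 2 and 1.10, 0.642 and 0.465 CPM in control and was not called. TTK averaged 0.584 ± 0.184 CPM, 0.410 ± 0.313 CPM and 0.378 ± 0.130 CPM in that order, also without a call.

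All 6 kinetochore genes fell in Huh7. SPC25, a subunit of the NDC80 complex that binds microtubules, measured 0.581, 0.317 and 0.534 CPM in Huh7 shTHBD and 3.71, 3.50 and 3.36 CPM in control (−2.90 ± 0.37, adjusted p = 4.4e-08). NDC80 (HEC1), which gives that complex its name, measured 2.66, 2.34 and 2.40 CPM in Huh7 shTHBD and 6.66, 8.19 and 7.40 CPM in control (−1.62 ± 0.20, adjusted p = 4.1e-08). NUF2, its partner in the same complex, averaged 1.61 ± 0.332 CPM and 7.74 ± 0.323 CPM (−2.29 ± 0.23). All 3 of the 40 genes that encode subunits of this complex fell, SPC25 with the widest error. CENPA, the centromeric histone H3 variant, measured 0.664, 0.357 and 0.712 CPM in Huh7 shTHBD and 1.73, 1.65 and 2.38 CPM in control (−1.75 ± 0.44, adjusted p = 9.7e-04). CENPF, a large coiled-coil protein of the outer kinetochore, measured 10.997, 12.2 and 13.9 CPM in Huh7 shTHBD and 37.7, 39.7 and 35.6 CPM in control (−1.64 ± 0.11, adjusted p = 1.4e-14). CENPE, a kinesin that moves chromosomes to the spindle equator, averaged 5.60 ± 0.0848 CPM in Huh7 shTHBD and 20.9 ± 1.54 CPM in control (−1.93 ± 0.13).

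Of the kinetochore genes, CENPE and CENPF passed the filter on low counts in IMR90. CENPF measured 4.05, 3.15 and 3.52 CPM in the libraries labelled set 1, 6.64, 7.79 and 5.93 CPM in set 2 and 2.46, 3.43 and 2.42 CPM in control. All set 2 libraries were above all control libraries, and CENPF rose there (1.22 ± 0.18, adjusted p = 7.5e-09); it was not called in the libraries labelled set 1 (0.43 ± 0.19, adjusted p = 0.0547), but was without control replicate 2 or set 1 replicate 2 (0.60 and 0.51) and with DESeq2 size factors (0.44, adjusted p = 0.0478). Set 1 over set 2 was −0.79 ± 0.17 (adjusted p = 3.5e-05). CENPE averaged 1.63 ± 0.265 CPM, 1.59 ± 0.105 CPM and 1.44 ± 0.235 CPM in the libraries labelled set 1, set 2 and control and was not called. NDC80 gave 1, 4 and 2 counts in libraries labelled set 1, 2, 5 and 4 in set 2 and 0, 1 and 5 in control. CENPA gave 7, 9 and 2 counts in libraries labelled set 1, 0, 3 and 4 in set 2 and 3, 7 and 1 in control. Both genes had fewer than 10 counts in each library. NUF2 gave 8, 0 and 2 counts in libraries labelled set 1, 11, 10 and 9 in set 2 and 4, 0 and 2 in control. SPC25 gave 4, 1 and 1 counts in libraries labelled set 1, 1, 0 and 0 in set 2 and 0, 0 and 2 in control. None of these 4 genes passed the filter, and without it NUF2 was the one called against control, in set 2, as given above.

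Of the 10 kinesins and spindle proteins, 8 fell in Huh7. KIF2C (MCAK), a kinesin that takes microtubule ends apart, measured 2.32, 1.66 and 1.51 CPM in Huh7 shTHBD and 17.1, 18.03 and 15.004 CPM in control (−3.21 ± 0.18, adjusted p = 2.1e-16). ASPM, a spindle pole protein, measured 7.18, 9.23 and 10.9 CPM in Huh7 shTHBD and 53.1, 57.99 and 52.2 CPM in control (−2.61 ± 0.12, adjusted p = 5.1e-19). HMMR, a spindle-associated protein also known as a hyaluronan receptor, measured 3.36, 2.62 and 2.94 CPM in Huh7 shTHBD and 14.3, 19.4 and 17.2 CPM in control (−2.54 ± 0.16, adjusted p = 9.1e-15). These were among the largest falls of the role, with no overlap of the groups. KIF20A, a kinesin of the central spindle, measured 3.15, 2.34 and 2.40 CPM in Huh7 shTHBD and 11.2, 10.3 and 9.93 CPM in control (−2.02 ± 0.19, adjusted p = 5.2e-11). KIF11 (Eg5), which pushes the spindle poles apart, measured 9.01, 8.32 and 12.2 CPM in Huh7 shTHBD and 24.95, 25.02 and 20.5 CPM in control (−1.29 ± 0.14, adjusted p = 1.2e-09). KIF23, the motor of the centralspindlin complex, measured 19.9, 20.9 and 20.7 CPM in Huh7 shTHBD and 36.3, 34.9 and 30.8 CPM in control, the smallest called fall of any member (−0.76 ± 0.098, adjusted p = 5.8e-08). DLGAP5 (HURP), which stabilises kinetochore fibres, averaged 4.12 ± 0.450 CPM in Huh7 shTHBD and 24.6 ± 1.56 CPM in control (−2.61 ± 0.14). KIF4A, a chromosome-bound kinesin, averaged 4.14 ± 0.937 CPM and 14.6 ± 1.10 CPM (−1.85 ± 0.16); its counts are uncertain because KIF4B is nearly identical.

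In IMR90, ASPM and HMMR rose in both sets, which share their controls. Both genes had few counts in control and passed the filter mainly through the shTHBD libraries, so these rises are given as values only. ASPM measured 1.10, 0.749 and 1.37 CPM in the libraries labelled set 1, 0.790, 0.889 and 1.42 CPM in set 2 and 0.681, 0 and 0.139 CPM in control. HMMR measured 0.986, 0.600 and 0.685 CPM in the libraries labelled set 1, 1.26, 1.15 and 1.03 CPM in set 2 and 0.314, 0.321 and 0.0930 CPM in control. Every shTHBD library of IMR90 was above every control library for both genes. The change of ASPM was 2.02 ± 0.52 for set 1 (adjusted p = 6.8e-04) and 1.82 ± 0.53 for set 2 (adjusted p = 0.00175), and that of HMMR 1.69 ± 0.51 (adjusted p = 0.00396) and 2.16 ± 0.49 (adjusted p = 7.6e-05). Without control replicate 3 HMMR was not called in the libraries labelled set 1 (1.28, adjusted p = 0.0528). With DESeq2 ASPM was not called in set 2 (adjusted p = 0.0546), and without control replicate 1 its changes were 3.79 (set 1) and 3.59 (set 2). KIF23 measured 5.64, 4.70 and 4.99 CPM in the libraries labelled set 1, 8.27, 9.04 and 8.82 CPM in set 2 and 4.56, 4.28 and 4.32 CPM in control. It rose in set 2 (0.91 ± 0.14, adjusted p = 4.8e-08) and was not called in the libraries labelled set 1 (0.27 ± 0.15, adjusted p = 0.124); set 1 over set 2 was −0.63 ± 0.14 (adjusted p = 4.3e-05). KIF11 measured 2.52, 2.40 and 1.52 CPM in the libraries labelled set 1, 2.37, 3.50 and 1.91 CPM in set 2 and 1.94, 2.30 and 2.32 CPM in control, with overlap throughout. KIF20A gave 2, 8 and 10 counts in libraries labelled set 1, 3, 5 and 3 in set 2 and 11, 10 and 2 in control. KIF2C gave 15, 8 and 15 counts in libraries labelled set 1, 4, 8 and 4 in set 2 and 5, 9 and 6 in control. KIF4A, with the uncertainty named above, and DLGAP5 averaged under 1 CPM in all 3 groups.

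PRC1 and NUSAP1 stand apart from the other spindle genes in how much of their exons they share. PRC1, which bundles the microtubules of the central spindle, lies on chromosome 15 from 90966040 to 90995629 (minus strand, GRCh38). NUSAP1, a microtubule-binding protein of the spindle, lies on chromosome 15 from 41320794 to 41381050 (plus strand). Of their exon bases, 61.9% and 81.4% also belong to other genes of the tables, whereas 25 members share no base and 3 more than 10% (FOXM1 15.9%, PLK1 12.8% and BUB1B 10.2%). A fragment that lies in the exons of more than 1 gene is left uncounted by featureCounts unless it is told otherwise. The command recorded for IMR90 does not do so, and that for Huh7 is not given in the sources used here. In the Huh7 table the main partners are AC068831.7 for PRC1 (57.6% of its exon bases, same strand) and AC087721.2 for NUSAP1 (81.4%, same strand).

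The counts of both genes were few. PRC1 gave 6, 2 and 0 counts in Huh7 shTHBD and 8, 10 and 11 in control, and its partner AC068831.7 gave 1, 12 and 14 counts in Huh7 shTHBD and 31, 24 and 26 in control. NUSAP1 gave 54, 40 and 29 counts in Huh7 shTHBD and 12, 17 and 8 in control, and AC087721.2 gave 2, 0 and 0 counts in Huh7 shTHBD and 0 in each control library. NUSAP1 was the only member called higher in Huh7 (1.41 ± 0.44, adjusted p = 0.00742). Without Huh7 shTHBD replicate 1 it was not called (1.17, adjusted p = 0.0578). OIP5, on the opposite strand beside NUSAP1, gave 25, 23 and 20 counts in Huh7 shTHBD and 52, 104 and 75 in control. In IMR90 NUSAP1 gave 0, 0 and 2 counts in libraries labelled set 1, 8, 6 and 4 in set 2 and 0, 1 and 1 in control. PRC1 gave 0, 0 and 2 counts in libraries labelled set 1, 0, 3 and 0 in set 2 and 0, 3 and 2 in control. The part of the overlap in these values was not tested.

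**Figure D4:**
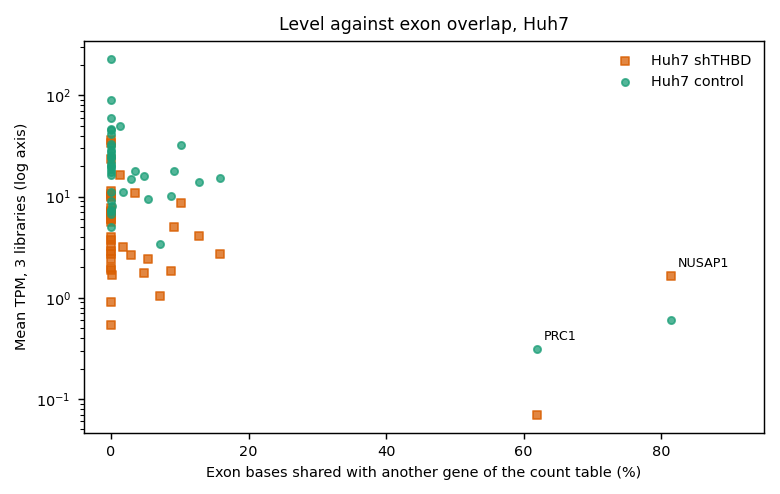
Each gene is shown by the percentage of its exon bases that other genes of the Huh7 table share (x axis) and its mean TPM over 3 libraries (y axis, log), with squares for Huh7 shTHBD and circles for Huh7 control. PRC1 and NUSAP1 lie alone at 61.9% and 81.4% and have the lowest control levels of the 40 genes, and NUSAP1 is the member with the square clearly above the circle.

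The 4 genes of anaphase and mitotic exit fell in Huh7. CDC20, the activator of the anaphase-promoting complex, measured 4.48, 5.79 and 6.72 CPM in Huh7 shTHBD and 32.1, 35.2 and 35.8 CPM in control (−2.63 ± 0.13, adjusted p = 7.9e-18). ESPL1, the protease separase that cuts cohesin, measured 4.52, 6.02 and 3.83 CPM in Huh7 shTHBD and 24.7, 21.4 and 23.1 CPM in control (−2.29 ± 0.15, adjusted p = 5.2e-15). PTTG1, the securin that holds separase inactive, measured 2.99, 4.12 and 4.76 CPM in Huh7 shTHBD and 10.3, 12.04 and 11.5 CPM in control (−1.54 ± 0.18, adjusted p = 7.1e-09). No library of one group reached the other for any of them; the counts of PTTG1 are uncertain because PTTG2 and PTTG3P are near-identical copies. UBE2C, the ubiquitin-conjugating enzyme of the complex, averaged 3.76 ± 0.868 CPM in Huh7 shTHBD and 16.7 ± 2.13 CPM in control (−2.17 ± 0.17).

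In IMR90, separase was called in the libraries labelled set 1 and securin in set 2. ESPL1 measured 10.3, 10.4 and 9.49 CPM in the libraries labelled set 1, 5.11, 5.02 and 5.34 CPM in set 2 and 5.60, 5.30 and 5.81 CPM in control, and rose in the libraries labelled set 1 (0.91 ± 0.13, adjusted p = 6.3e-09). PTTG1 measured 2.79, 3.25 and 3.82 CPM in the libraries labelled set 1, 6.16, 6.38 and 5.44 CPM in set 2 and 3.35, 4.12 and 2.70 CPM in control, and rose in set 2 (0.75 ± 0.17, adjusted p = 1.3e-04). Set 1 over set 2 was 1.10 ± 0.13 for ESPL1 (adjusted p = 1.2e-11) and −0.72 ± 0.18 for PTTG1 (adjusted p = 2.1e-04). CDC20 measured 3.62, 3.05 and 3.03 CPM in the libraries labelled set 1, 1.90, 2.67 and 2.23 CPM in set 2 and 3.51, 3.32 and 3.07 CPM in control. All set 2 libraries were below all control libraries, and CDC20 fell there (−0.62 ± 0.21, adjusted p = 0.00831). UBE2C averaged 0.888 ± 0.339 CPM, 0.546 ± 0.260 CPM and 0.838 ± 0.272 CPM in the libraries labelled set 1, set 2 and control and was not called.

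MKI67, the gene of the proliferation marker Ki-67 that coats mitotic chromosomes, had the largest fall of the members in Huh7. It measured 2.49, 1.90 and 1.47 CPM in Huh7 shTHBD and 18.2, 18.2 and 19.5 CPM in control (−3.27 ± 0.17, adjusted p = 4.4e-17). TOP2A, the topoisomerase that untangles sister DNA, measured 9.71, 9.83 and 10.9 CPM in Huh7 shTHBD and 38.2, 33.9 and 29.7 CPM in control (−1.78 ± 0.12, adjusted p = 1.1e-14). ANLN (anillin), a scaffold of the contractile ring, measured 26.6, 28.4 and 28.2 CPM in Huh7 shTHBD and 88.6, 87.8 and 80.6 CPM in control (−1.66 ± 0.079, adjusted p = 3.5e-18). The groups did not overlap for any of the 3.

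In IMR90 ANLN rose in both sets. It measured 5.15, 6.25 and 5.14 CPM in the libraries labelled set 1, 3.95, 4.81 and 4.85 CPM in set 2 and 2.46, 1.499 and 2.19 CPM in control, with changes of 1.48 ± 0.19 (adjusted p = 5.4e-10) and 1.06 ± 0.20 (adjusted p = 2.9e-06). TOP2A measured 2.68, 2.20 and 2.84 CPM in the libraries labelled set 1, 1.21, 1.31 and 1.42 CPM in set 2 and 1.57, 1.499 and 2.19 CPM in control. It was called higher in the libraries labelled set 1 (0.60 ± 0.26, adjusted p = 0.0419), a call lost with DESeq2 (adjusted p = 0.0633), with upper-quartile scaling and without any of 4 libraries (control replicates 1 and 2 and set 1 replicates 1 and 3; 0.50 to 0.57). MKI67 gave 14, 12 and 9 counts in libraries labelled set 1, 3, 4 and 2 in set 2 and 8, 13 and 4 in control. Its set 2 and control values overlapped. Its fall in set 2 (−1.46 ± 0.65, adjusted p = 0.0424) was lost with DESeq2 (adjusted p = 0.0663), with upper-quartile scaling (adjusted p = 0.0528) and without any of 5 libraries (control replicates 1 and 2 and each set 2 library). Without control replicate 2 it was −0.96 (adjusted p = 0.285). The difference of set 1 over set 2 was 2.002 ± 0.62 for MKI67 (adjusted p = 0.00307) and 1.11 ± 0.27 for TOP2A (adjusted p = 2.1e-04). MKI67 passed the filter on low counts through libraries labelled set 1 and control, and through none of set 2. Its fall in set 2 and its difference between the sets are therefore given as values only.

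The response in Huh7 was also compared directly with that of IMR90 set 2, the set in which THBD was lower than control. Of the 28 members that passed the filter on low counts in both lines, the Huh7 change minus the IMR90 set 2 change was called lower for 26 and higher for 0 by edgeR's quasi-likelihood test. The shares of the 12645 genes that passed in both lines were 25.7% lower and 28.2% higher. The median difference was −1.97 for these 28 members and 0.011 over those genes. FOXM1 and KIF4A were the 2 not called. The 26 include ASPM and HMMR, whose limit is given below, and BUB3 (−0.33 ± 0.078). BUB3 was not called in Huh7 (−0.094 ± 0.079) and rose in set 2 (0.27 ± 0.036), so its difference is not a fall in Huh7. The joint fit also took in 11 members that did not pass in IMR90 and entered through their Huh7 counts. Of these, 6 were called lower (MYBL2, CDC25C, NDC80, NUF2, KIF2C and DLGAP5), and with so few IMR90 counts their calls are given as values and support nothing. With them the calls were 32 of 39 (33 had an unadjusted p under 0.05; the other settings gave 29 to 33), against 44% of all 16682 genes tested, 21.2% lower and 22.8% higher. Among the 28, HMMR, which rose in set 2 and fell in Huh7, had the largest difference (−4.69 ± 0.44, adjusted p = 1.4e-11). ASPM moved in the same opposite directions and was called (−4.40 ± 0.51). In IMR90 control HMMR gave 6, 6 and 2 counts and ASPM 13, 0 and 3. Both passed the filter in IMR90 mainly through the shTHBD libraries, so their differences are given as values only. Opposite directions were also seen for CENPF (−2.83 ± 0.20), ANLN (−2.68 ± 0.19), PTTG1 (−2.26 ± 0.26) and KIF23 (−1.64 ± 0.16), each called. AURKA and TPX2 fell in both and fell further in Huh7 (−0.91 ± 0.20 and −0.66 ± 0.17, adjusted p = 2.1e-04 and 0.00166). So did CDC20 (−1.98 ± 0.24), MAD2L1 (−1.54 ± 0.20) and MKI67 (−1.79 ± 0.72), each called, MKI67 with the limits given below. Of the members that fell in Huh7, 6 rose in set 2, 6 fell there, 15 were not called there and 10 were not tested. FOXM1 fell in both, and its difference (−1.01 ± 0.46, adjusted p = 0.0740) was not called. It was called with DESeq2 (adjusted p = 0.0411), without a filter (adjusted p = 0.0422) and without control replicate 3 (−1.48) or set 2 replicate 3 (−1.27) of IMR90 or shTHBD replicate 3 of Huh7 (−1.29). The lines differ in tissue, in the way senescence was induced and in the members' level in control, and these cannot be told apart. Without BUB3 the members summed to 69.8 to 76.9 CPM in IMR90 control and 1147 to 1205 CPM in Huh7 control. THBD gave 0, 0 and 6 counts in Huh7 control, where a fall could not be detected. The part of these levels in the differences was not tested. The differences for MKI67, BUB1B, TTK, NDC80 and UBE2C were not called without 1 or more of the single libraries: MKI67 was −1.40 to −1.80 where it was not called (control replicates 1 and 3 or set 2 replicates 1 and 2 of IMR90, control replicate 3 or shTHBD replicate 3 of Huh7), and BUB1B was −1.14 without set 2 replicate 2. TTK was −1.05 to −1.25 (control replicate 3, set 2 replicates 1 and 3) and was not called with limma voom either (−1.06, adjusted p = 0.237). NDC80 was −1.88 and −2.15 (control replicate 1, set 2 replicate 2), and UBE2C −1.12 (set 2 replicate 1). Without control replicate 3 of IMR90 the NDC80 difference was −4.15 and stayed called. KIF4A was called without set 2 replicate 2 (−1.33, adjusted p = 0.0482) and SPC25 with voom (−2.62, adjusted p = 0.0208).

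Other genes of cell division were read from 9 lists of 160 genes that hold none of the members. The lists were chosen with earlier results of these data known, so their counts are description only. Of all genes tested in Huh7, 53.1% were called, 25.9% higher and 27.3% lower. The list of CENP-A loading and inner kinetochore genes had 1 higher and 13 lower of 16 tested in Huh7 (median −1.16), led by HJURP, the CENP-A chaperone, at −2.68 ± 0.16; CENPC, the platform of the inner kinetochore, rose by 0.44 ± 0.14. Outer kinetochore and checkpoint genes had 2 higher and 13 lower of 17 (median −0.82), from SKA3 at −2.82 ± 0.22 to SKA2 at 0.31 ± 0.11, both of the complex that couples kinetochores to microtubules. Centrosome and spindle assembly genes had 2 higher and 19 lower of 26 (median −0.80), from the kinesin KIF18B at −2.57 ± 0.22 to the microtubule polymerase CKAP5 at 0.32 ± 0.068. Cytokinesis genes had 2 higher and 8 lower of 11 (median −1.17), from the abscission protein CEP55 at −2.71 ± 0.16 to SEPTIN2 at 0.58 ± 0.059.

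Mitotic entry kinases and phosphatases had 5 higher and 9 lower of 15 in Huh7 (median −1.01). These and the counts below stand beside 53.1% of all genes called in Huh7, 25.9% higher and 27.3% lower. Its ends were the 2 kinases that hold CDK1 inactive: PKMYT1 measured 1.41, 2.496 and 1.38 CPM in Huh7 shTHBD and 12.6, 10.4 and 11.8 CPM in control (−2.74 ± 0.21), and WEE1 measured 139, 134 and 144 CPM in Huh7 shTHBD and 43.04, 44.2 and 45.6 CPM in control (1.62 ± 0.069, adjusted p = 2.0e-19). The anaphase-promoting complex had 4 higher and 7 lower of 17 (median −0.23), from its ubiquitin-conjugating enzyme UBE2S at −1.50 ± 0.090 to its subunit CDC27 at 0.49 ± 0.076. Cohesin and condensin had 8 higher and 9 lower of 18 (median −0.13), from sororin (CDCA5) at −2.34 ± 0.12 to the cohesin release factor WAPL at 0.51 ± 0.066. The DREAM, RB and E2F list had 7 higher and 8 lower of 22 (median 0.023). It ran from E2F2, an activator of S-phase genes, at 0.0830, 0.119 and 0.356 CPM in Huh7 shTHBD and 4.12, 3.45 and 3.05 CPM in control (−4.27 ± 0.46) to DYRK1A, the kinase that starts DREAM assembly, at 59.8, 55.5 and 53.3 CPM in Huh7 shTHBD and 36.8, 34.6 and 35.03 CPM in control (0.64 ± 0.081). The floor of 3 counts was 0.119 to 0.133 CPM in Huh7 shTHBD, and E2F2 lay near it there. E2F2 passed the filter on low counts through control alone, so its change is given as a value only. The DNA replication core had 0 higher and 16 lower of 17 (median −1.29), led by the helicase subunit MCM5 at 4.23, 7.13 and 4.36 CPM in Huh7 shTHBD and 45.3, 39.2 and 43.1 CPM in control (−3.04 ± 0.14). Adjusted p for the genes named from these 9 lists in Huh7 was 0.0187 or lower.

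In the IMR90 libraries labelled set 1 the counts over control were 1 higher and 1 lower of 14 for the inner kinetochore, 0 higher and 5 lower of 14 for the outer kinetochore, 8 higher and 2 lower of 26 for centrosome and spindle, 3 higher and 4 lower of 11 for cytokinesis and 6 higher and 0 lower of 13 for the entry kinases. They were 3 higher and 3 lower of 17 for the anaphase-promoting complex, 7 higher and 3 lower of 18 for cohesin and condensin, 7 higher and 1 lower of 20 for DREAM, RB and E2F and 6 higher and 2 lower of 17 for DNA replication. List medians ran from −0.16 to 0.20. Of all genes tested, 53.8% were called in the libraries labelled set 1, 27.3% higher and 26.5% lower. In set 2 they were 6 higher and 2 lower of 14 for the inner kinetochore, 3 higher and 4 lower of 14 for the outer kinetochore, 4 higher and 10 lower of 26 for centrosome and spindle, 2 higher and 4 lower of 11 for cytokinesis and 5 higher and 3 lower of 13 for the entry kinases. The other lists of set 2 had 6 higher and 10 lower of 17 for the anaphase-promoting complex, 7 higher and 6 lower of 18 for cohesin and condensin, 7 higher and 7 lower of 20 for DREAM, RB and E2F and 4 higher and 8 lower of 17 for DNA replication. Medians ran from −0.19 to 0.12. Of all genes tested, 67.3% were called in set 2, 33.2% higher and 34.1% lower. Single genes of the lists differed between the sets. CDC25A, an activator of CDK2 and CDK1, was 0.74 ± 0.16 for set 1 and −1.93 ± 0.21 for set 2 (set 1 over set 2: 2.67 ± 0.20, adjusted p = 5.7e-20), and UBE2S was −1.52 ± 0.046 in set 2 (set 1 over set 2: 1.47 ± 0.046, adjusted p = 4.6e-41).

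**Figure D5:**
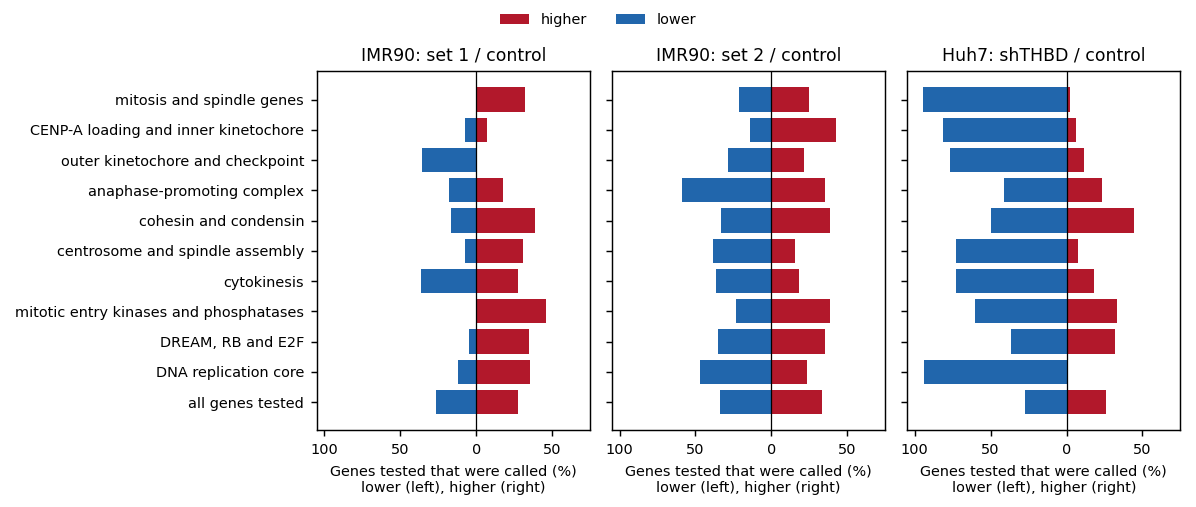
Bars give the percentage of the tested genes of each list called lower (blue, left) and higher (red, right) in the libraries labelled set 1, in set 2 and in Huh7 shTHBD, each over its own control; the last row is all genes tested. In Huh7 the mitosis and spindle genes and the DNA replication core lie almost wholly on the lower side (37 of 39 and 16 of 17), while cohesin and condensin is divided (8 higher, 9 lower of 18).

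Set side by side per unit length, the members kept a wide range of levels. In Huh7 control, MYBL2 was followed by TPX2 (89.2 ± 5.43 TPM), CDC20 (59.3 ± 3.799 TPM), ANLN (49.6 ± 2.29 TPM), CCNB1 (46.7 ± 1.13 TPM) and UBE2C (44.998 ± 5.40 TPM). The last 2 lay within the SD of UBE2C of each other. The lowest were MKI67 (5.04 ± 0.226 TPM), CENPA (3.42 ± 0.735 TPM), NUSAP1 (0.601 ± 0.210 TPM) and PRC1 (0.310 ± 0.0535 TPM). In Huh7 shTHBD the highest were TPX2 (36.3 ± 1.29 TPM), MYBL2 (33.6 ± 3.32 TPM), within its SD of TPX2, and BUB3 (23.5 ± 2.69 TPM). In IMR90 control only BUB3 (49.8 ± 0.432 TPM), AURKA (16.6 ± 1.004 TPM) and CCNB1 (11.7 ± 0.641 TPM) exceeded 10 TPM. These levels rest on the full exon length, which for PRC1 and NUSAP1 includes the bases they share with other genes.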

How the data were processed

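Raw counts per gene, as the authors deposited them, were the only measurements used. The submitters' processing notes name fastp, STAR, featureCounts and GRCh38. In IMR90, per the file headers, featureCounts 2.0.1 counted paired fragments over exons by gene name in GENCODE 38, with no strand option and no option to count fragments that overlap several genes. The version, annotation and options behind the Huh7 table were not stated in the sources used here. Without strand, reads of a gene and of an antisense partner cannot be told apart.

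Tests were edgeR 4.0.16 quasi-likelihood tests (R 4.3.3) after filterByExpr and TMM scaling, adjusted by Benjamini-Hochberg over all genes tested, with calls at adjusted p under 0.05. A single model held the 9 IMR90 libraries (15411 genes), another the 6 Huh7 libraries (17474 genes), and a joint model of 15 libraries compared the lines (16682 of 38415 shared genes). The biological coefficient of variation was 3.13%, 8.20% and 5.48% in these fits. SE was approximated as the fold change over the root of F. CPM used library totals, TPM the deposited gene lengths. The floor of 3 counts covers counting error only. Promoters came from RefSeq (GRCh38.p14), where 33 of 40 members matched; a gene with several windows counted if any held a motif. The fits were tested on simulated data.

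The members and the 9 lists were chosen with earlier results of these data known. Values in every library are given for 26 members that stand for the roles and for the 5 largest rises and falls called per comparison with control. From each list, the called genes with the largest rise and fall and at least 1 CPM could be named. UBE2S and CDC25A differences between the sets were named after their values were seen. Alternatives were DESeq2 1.42.0 (size factors and test), upper-quartile scaling, voom (limma 3.58.1), other filters, a fit of 2 groups, a replicate block and each library left out in turn.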

Additional observations from a re-analysis of the deposited data

Results flagged for a closer look

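The difference between the change in Huh7 (shTHBD over control) and that in IMR90 set 2 (over its control) was called for 32 members when the difference of the 2 changes was itself tested in the joint fit (edgeR's quasi-likelihood test with Benjamini-Hochberg adjustment). All values are log2, Huh7 change minus IMR90 set 2 change, and negative values mean a lower change in Huh7. Of the 32, 26 passed the filter on low counts in both lines, ASPM and HMMR of them mainly through the shTHBD libraries of IMR90. The other 6 (MYBL2, CDC25C, NDC80, NUF2, KIF2C and DLGAP5) did not pass it in IMR90 and entered through their Huh7 counts, so that their values are listed and support nothing. Of the transcription factor, the difference was −4.83 for MYBL2. Among the cyclins and CDC25C it was −2.03 for CCNA2, −2.05 for CCNB1, −2.31 for CCNB2 and −2.81 for CDC25C. Those of the mitotic kinases and their partners differed by −0.91 for AURKA, −2.56 for AURKB, −2.09 for PLK1, −2.65 for BIRC5 and −0.66 for TPX2. Within the checkpoint the values were −2.60 for BUB1, −1.77 for BUB1B, −0.33 for BUB3, −1.50 for TTK and −1.54 for MAD2L1. For the kinetochore the test gave −2.42 for NDC80, −4.51 for NUF2, −1.97 for CENPE and −2.83 for CENPF. The values of the kinesins and spindle proteins were −1.42 for KIF11, −1.64 for KIF23, −2.85 for KIF2C, −4.40 for ASPM, −3.06 for DLGAP5 and −4.69 for HMMR. Genes of anaphase and exit gave −1.98 for CDC20, −1.47 for UBE2C, −2.26 for PTTG1 and −2.06 for ESPL1. In chromosome structure and cytokinesis the differences were −1.79 for MKI67, −1.23 for TOP2A and −2.68 for ANLN. Single libraries were not tested as outliers. In Huh7 shTHBD, chi-square per degree of freedom between libraries was 9.95 and 12.5 for replicate 3 against replicates 1 and 2. Between replicates 1 and 2 it was 4.30. The mitochondrial share of counts was 9.94% in replicate 3, against 8.04% and 7.83% in replicates 1 and 2. Without replicate 3, 38 members were called in Huh7.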

How the results depend on the processing

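The members' calls were 9 in the libraries labelled set 1, 13 in set 2, 15 for set 1 over set 2, 38 in Huh7 and 32 for the difference between the lines. Under the other scalings, filters, tests and the fit of 2 groups they were 8 to 10, 11 to 14, 13 to 15, 38, and 32 to 33. Leaving out each library gave 8 to 11, 12 to 14, 15 to 17, 37 to 38 and 29 to 32. Over all genes leaving out each library gave 7633 to 7749 (libraries labelled set 1), 9932 to 10028 (set 2), 10346 to 10442 (set 1 over set 2), 8391 to 9189 (Huh7) and 6803 to 7375 (difference of lines). No called member's direction reversed in any alternative run. With the replicate number as a replicate block the members called were 9, 13, 15, 38 and 32. Libraries of the same number did not deviate together (correlations from −0.026 to 0.022 in IMR90 and −0.052 to −0.016 in Huh7). With so few libraries per group, these correlations cannot tell whether such libraries share a culture or a day. Upper-quartile scaling moved the median of all genes in set 1 over set 2 to −0.13, against −0.030 with TMM. The call of ANLN in set 1 over set 2 was lost there and without set 1 replicate 2 or set 2 replicate 1, and that of KIF4A without set 2 replicate 2; the cause was not tested. MKI67 in set 2 was also not called with voom (adjusted p = 0.0872) or without a filter (adjusted p = 0.0800), where TOP2A in the libraries labelled set 1 had 0.0808. Depth limits the 12 members that did not pass the filter in IMR90.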
